A study of Mus musculus with 48 samples.

Results

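The results below describe how the effect of irradiation on hippocampal microglia of juvenile mice moved between 2 h and 6 h. The effect is the level in irradiated animals minus the level in sham animals of the same time. Its shift is the effect at 6 h minus the effect at 2 h, so a negative shift marks a response that was higher at 2 h and a positive shift a response that was higher at 6 h. The shift uses all 24 libraries of 2 h and 6 h, out of 48 in the series, and was taken for each of 10132 genes. C57BL/6 mice received 8 Gy to the whole brain in 1 dose on postnatal day 21, or a sham procedure. Animals were killed after 2 h or 6 h, and each of the 4 groups (sham 2 h, irradiated 2 h, sham 6 h and irradiated 6 h) held 6 animals. Each animal gave 1 library, so each time point had sham animals of its own, and the labels give neither sex nor the sham handling. Cells of the perfused hippocampus were freed with enzymes under mild conditions, and a flow cytometer sorted those with Cx3cr1, a chemokine receptor of microglia that some other myeloid cells also carry.

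Microglia are the resident macrophages of the brain. Ionizing radiation breaks DNA, and the kinase ATM that senses the breaks acts on both p53, a transcription factor for cell cycle arrest and death genes, and NF-kB, a transcription factor for inflammatory genes. NF-kB is held in the cytoplasm by IkB proteins, and several of its target genes encode IkB proteins and other inhibitors that shut it off again, while p53 drives Mdm2, the ligase that degrades it, so that both pathways are known to respond in pulses. A contrast of 2 early times therefore separates transcripts that came and went from those that lasted or came late.

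Levels are RPKM, reads on a gene scaled to its span and to the reads on all genes of the library. The span runs from gene start to gene end with introns, so levels are not comparable between genes, and each value below is for the whole gene. Effects and shifts are in log2 units of RPKM + 1, with the standard error after ±. An effect or shift of a gene with a level near 0 in sham animals depends on the added 1 and is smaller than its log2 fold change. Adjusted p values are from limma over the 10132 genes, and a gene is said to pass where its value is under 0.05. In these bulk samples, fewer cells of a type and less RNA per cell cannot be told apart.

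The libraries of 6 h sham animals were not of 1 kind, and this sets how every shift must be read. On the first principal component of the 24 libraries, with 19.4% of the variance, sham 6 h libraries 1 to 4 lay at -33.6 to -22.2, among the 2 h libraries (-35.4 to 0.79), while sham 6 h libraries 5 and 6 lay at 23.8 to 26.0, nearer to the irradiated 6 h libraries (37.6 to 44.1). The slope of the level on the GC content of the gene split the same way. In log2 units per 10 percentage points of GC it was -0.288 to -0.105 in the 2 h libraries, -0.253 to -0.190 in sham 6 h libraries 1 to 4, 0.118 to 0.151 in sham 6 h libraries 5 and 6, and 0.188 to 0.256 in the irradiated 6 h libraries. The share of mitochondrial reads was 6.38 ± 0.60% (SD, n = 4) in sham 6 h libraries 1 to 4 and 3.18 ± 0.13% (n = 2) in libraries 5 and 6. It was 3.25 ± 0.69% (n = 6) in irradiated 6 h, 5.93 ± 2.49% in sham 2 h and 10.55 ± 3.03% in irradiated 2 h libraries. The labels name no batch. Every shift was therefore computed with all 6 sham 6 h libraries and again with libraries 5 and 6 as the only 6 h sham. Total reads on genes ran from 395761 to 3233667, with irradiated 2 h library 2 and sham 6 h library 4 (731819) below the rest.

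**Figure D1:**
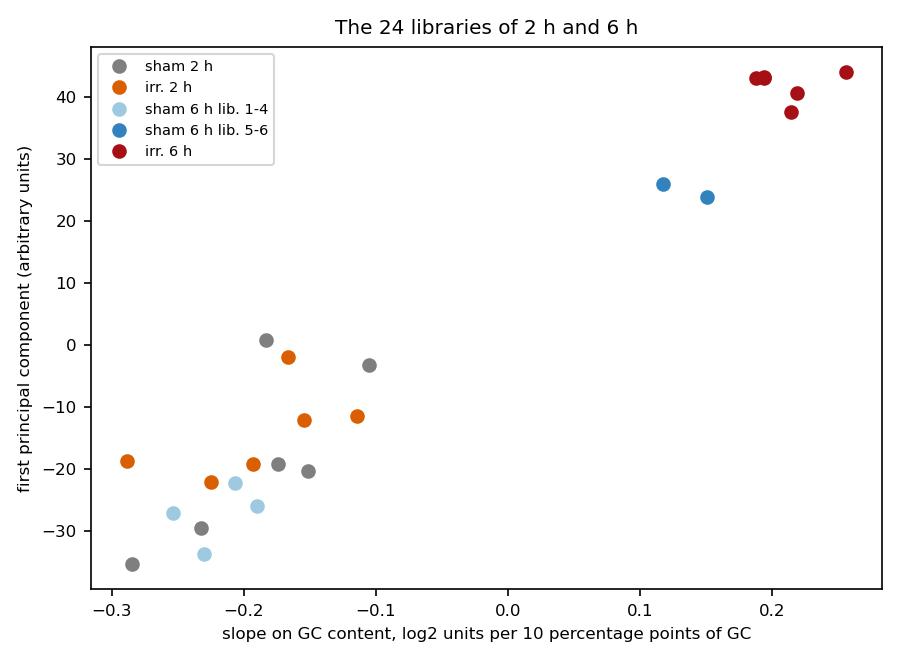
The 24 libraries by the slope of the level on gene GC content (x axis, log2 units per 10 percentage points of GC) and by their position on the first principal component (y axis, arbitrary units), coloured by group. Sham 6 h libraries 1 to 4 lie among the 2 h libraries, and sham 6 h libraries 5 and 6 lie at 23.8 to 26.0 on the component, next to the irradiated 6 h libraries at 37.6 to 44.1.

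The sorted cells carried the markers of microglia. The 10 microglial markers summed to 32136 to 46746 RPM, the reads scaled to library size without gene span, over the 24 libraries, and none of the 10 was at 0 in any group. The 14 markers of monocytes and neutrophils summed to 5.21 to 54.1, the 14 of lymphocytes to 15.8 to 71.2, the 12 of neurons to 24.3 to 133, and the 8 of perivascular macrophages to 42.4 to 183 RPM. The neutrophil genes Ly6g, Retnlg and Ngp and the lymphocyte genes Cd3e, Cd3g, Cd8a, Nkg7 and Gzma had no read in any of the 24 libraries. The 10 astrocyte markers summed to 660 to 964 RPM in irradiated 2 h libraries and to 246 to 449 in sham 2 h libraries. At 6 h the sums were 372 to 514 RPM in irradiated and 297 to 346 in sham libraries. Of the 10, 2 were tested, and both were higher in irradiated animals at 6 h with all 6 sham libraries. With libraries 5 and 6 neither was. The shift of only 1 of them passed, Slc1a3, a glutamate transporter. It was -0.73 ± 0.19 with all 6 sham libraries (adjusted p = 0.0107) and -0.65 ± 0.23 with libraries 5 and 6 (adjusted p = 0.317). The median shift of the 2 tested markers was 0.08 with all 6 and 0.10 with libraries 5 and 6, so the other had a positive shift. Perivascular macrophage markers summed to 42.4 to 95.9 RPM in irradiated 6 h libraries and 109 to 173 RPM in sham 6 h libraries. Of these Mrc1, the mannose receptor, was at 0.161 to 0.468 RPKM in irradiated 6 h libraries, below every library of the other 3 groups. Its shift was -0.51 ± 0.15 with all 6 sham libraries (adjusted p = 0.0239) and -0.38 ± 0.18 with libraries 5 and 6 (adjusted p = 0.591). Of the 8 markers 3 were tested, with a median shift of 0.22 with all 6 and -0.38 with libraries 5 and 6. With all 6 the shift of Mrc1 was thus opposite in sign to the median. The 9 markers of neural progenitors summed to 36.1 to 70.7 in irradiated 6 h libraries and to 3.51 to 31.1 in the others. Of the 9, Neurod1, Igfbpl1 and Neurog2 had no read in the irradiated 6 h libraries. The intermediate filament gene Nes was the only one of the 9 to pass the filter, with a shift of 0.94 ± 0.33 (adjusted p = 0.0626). The part of these cells in the shifts below was not tested.

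With all 6 sham libraries, the effect was higher at 6 h than at 2 h for 563 genes (5.56% of those tested) and lower for 377 (3.72%). With sham libraries 5 and 6 it was higher for 37 (0.365%) and lower for 38 (0.375%), 75 in all (0.740%). Both ways of forming the shift called 72 genes in the same direction (0.711%), 37 higher (0.365%) and 35 lower (0.345%). The remaining 3 called with libraries 5 and 6 were Acp2, Nupr1 and Mllt6, all lower. Of the 940 genes called with all 6 (9.28%), 936 kept their sign with libraries 5 and 6, but their shift was a median 0.602 times as large, and the standard error over all genes rose from a median of 0.33 to 0.39. With sham libraries 1 to 4 as the 6 h sham, 1230 genes were higher (12.1%) and 791 lower (7.81%), 2021 in all (19.9%). When library 5 was left out, so that library 6 was the only 6 h sham and was assumed to vary like the other groups, 32 of the 72 remained called, and 31 remained without library 6. The split between directions with all 6 sham libraries depended on scaling: 59.9% of calls were higher with totals of all genes, 41.2% after quantile normalization, 48% with totals that left out mitochondrial genes, and 50.9% after a trend on GC content and length was removed.

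The genes called with all 6 sham libraries differed in base composition, as the libraries did. Median GC content was 53.9% for the 563 higher and 44.5% for the 377 lower genes, beside 49.6% for all genes tested. For the 72 called both ways it was 52.7% for the higher and 47.3% for the lower genes. The 72 genes kept their sign under every alternative, except that Pmp22 and Lpxn turned with sham libraries 5 and 6 when the values were taken exactly as deposited. For 12 of the 72 the call was lost under the values as deposited and under no other alternative: Sulf2, Maf and Impact among the higher genes, and Nfkbie, Tlr2, Donson, Rassf4, Cpd, Birc3, Orai2, Tbc1d8 and Creb1 among the lower. Of the 72, 10 overlap another gene on the chromosome that is not a predicted gene (Cxcl10, Donson, Sulf2, Glipr1, Amz1, Mif4gd, Tbc1d8, Bid, Pdia6 and the predicted gene Gm27960), and since the labels do not say whether the reads keep their strand, the values of these 10 are uncertain.

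**Figure D2:**
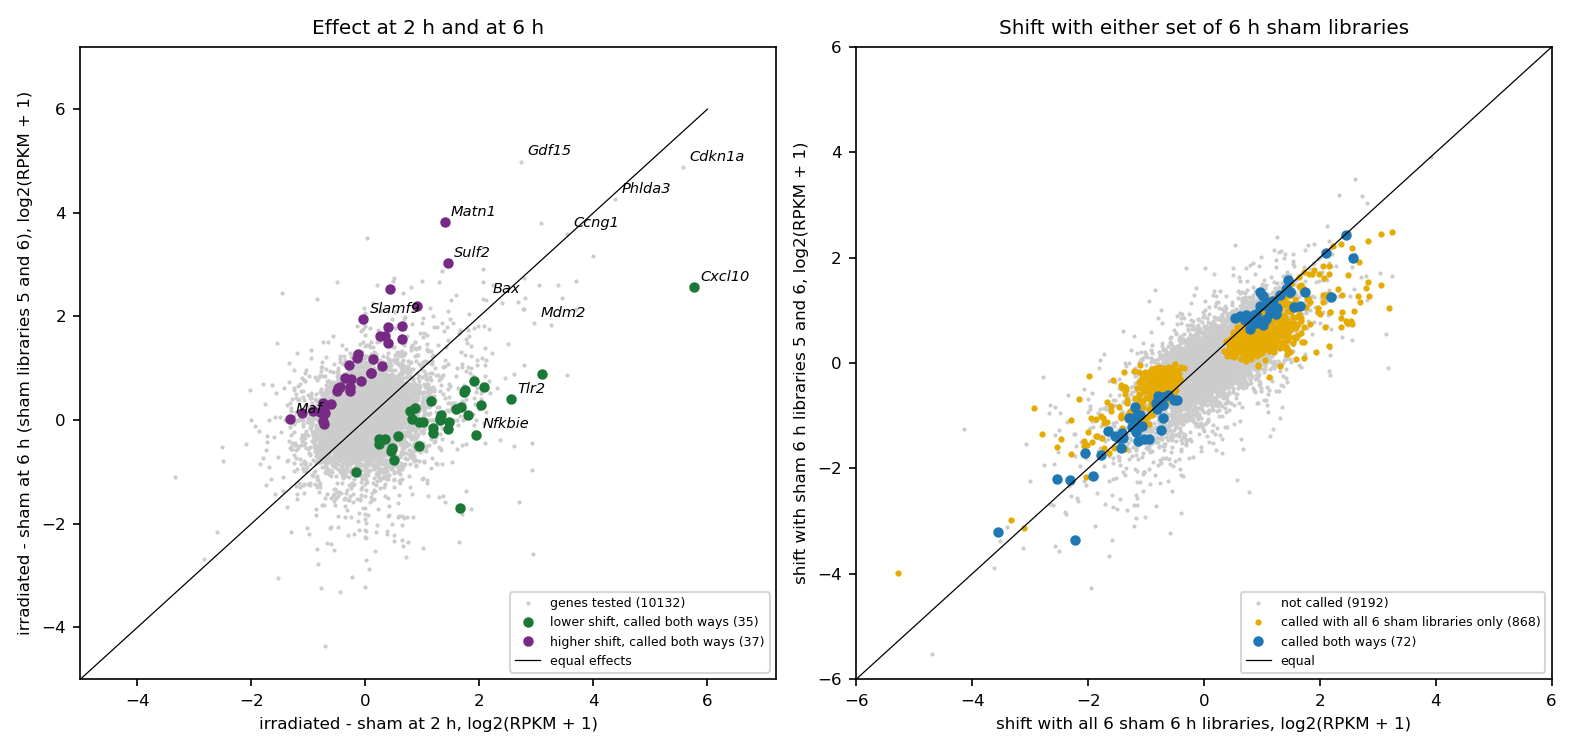
Left, the effect of irradiation at 2 h (x axis) against the effect at 6 h with sham libraries 5 and 6 (y axis), both in log2 units of RPKM + 1, for 10132 genes, with the 35 lower and 37 higher genes called both ways in colour. Right, the shift with all 6 sham 6 h libraries (x axis) against the shift with libraries 5 and 6 (y axis), with the 868 genes called with all 6 only and the 72 called both ways in colours of their own. Of the 940 called with all 6, 936 lie on the same side of 0 on both axes.

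The 72 genes fell into a few courses. Of the 35 lower genes, 27 were higher in irradiated animals at 2 h and no longer called at 6 h with sham libraries 5 and 6. Vcam1, Ddias and Cxcl10 were higher at both times and smaller at 6 h. Tmem173 and Gm27960 were higher at 2 h and lower at 6 h, Cd164 was lower at 6 h only, and Nfat5 and Pdia6 passed at neither time. The 6 h calls of some lower genes differed with all 6 sham libraries. Of the 27, Apaf1, Tlr2, Icam1, Orai2 and Gpr84 were then still called higher at 6 h, and Il13ra1, Creb1 and Rassf4 lower. Tmem173 and Gm27960 were then not called at 6 h, and Nfat5 was lower. Of the 37 higher genes, 15 were not called at 2 h and higher at 6 h, 13 were lower at 2 h and not called at 6 h (of which Ctns, Tmem86a, Slc35c2, Lpcat1, Pdxk and Amz1 were called higher at 6 h with all 6 sham libraries), 7 were higher at both times and larger at 6 h, and Pmp22 and Atp6v1c1 passed at neither. For scale, irradiation raised 466 genes (4.60%) and lowered 407 (4.02%) at 2 h, 873 in all (8.62%). It raised 157 (1.55%) and lowered 51 (0.503%) at 6 h with sham libraries 5 and 6. With all 6 sham libraries the 6 h counts were 1309 (12.9%) and 811 (8.00%). These counts follow from the same fit as the shift and add no support to it.

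Inflammatory genes of the NF-kB pathway were among those whose response had faded by 6 h. The 250 bases before the RefSeq start of 3 of them are shown here, because each holds the NF-kB motif (GGG, any 3 bases, then TTCC) and the levels of these genes are described next. The sequences are from RefSeq, build GRCm38.p6, 5′ to 3′ on the strand of the gene, with the motif in capitals. Cxcl10 lies at chr5:92348890-92349139, minus strand, with the motif beginning 159 and 104 bases before the start. Nfkbie lies at chr17:45555450-45555699, plus strand, with the motif 106 bases before the start. Tlr2 lies at chr3:83841609-83841858, minus strand, with the motif 173 bases before the start; the start of Tlr2 in the deposited table falls inside this stretch.
Cxcl10: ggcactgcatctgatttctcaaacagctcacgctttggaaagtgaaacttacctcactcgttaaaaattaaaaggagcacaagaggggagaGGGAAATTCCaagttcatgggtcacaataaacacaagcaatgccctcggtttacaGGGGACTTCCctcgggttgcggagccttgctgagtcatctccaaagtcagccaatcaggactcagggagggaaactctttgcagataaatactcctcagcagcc
Nfkbie: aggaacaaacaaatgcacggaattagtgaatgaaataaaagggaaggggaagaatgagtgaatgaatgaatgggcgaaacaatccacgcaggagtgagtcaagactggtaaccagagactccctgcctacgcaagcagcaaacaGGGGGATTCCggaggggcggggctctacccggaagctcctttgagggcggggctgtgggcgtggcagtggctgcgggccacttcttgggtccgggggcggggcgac
Tlr2: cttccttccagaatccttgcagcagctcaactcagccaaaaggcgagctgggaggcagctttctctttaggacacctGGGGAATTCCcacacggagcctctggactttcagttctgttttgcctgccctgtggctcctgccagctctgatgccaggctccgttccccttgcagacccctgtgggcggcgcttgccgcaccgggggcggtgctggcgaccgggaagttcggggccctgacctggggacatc
Searched on both strands, the motif was in 4.65% of 32851 RefSeq promoters of this length. It was in 7 of the 29 lower genes with a promoter in the table (Casp4, Cpd, Cxcl10, Galnt7, Mif4gd, Nfkbie and Tlr2) and in 0 of the 29 higher genes found there. For comparison, the AP-1 motif TGANTCA was in 6.75% of all promoters, in Cxcl10 and Nfkbie among the lower genes and in Fblim1 among the higher. The cyclic AMP response element TGACGTCA was in 1.55% of all, in Ppm1d and in Flcn. The E-box TCACGTG of lysosomal genes was in 3.13% of all, in Cd164 and Orai2 and in Pdxk. A match is a run of letters and no measured binding site.

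Cxcl10 encodes a chemokine that draws activated T cells (ENSMUSG00000034855, GRCm38 chromosome 5, 92346638 to 92348889), and its shift was the lowest of the 72 with all 6 sham libraries. At 2 h its level was 0 to 12.9 with a median of 3.54 RPKM in sham and 137 to 378 with a median of 244 RPKM in irradiated libraries. At 6 h it was 3.55 to 4.47 RPKM in sham libraries 1 to 4, 1.46 to 3.95 in libraries 5 and 6, and 12.4 to 25.8 with a median of 22.1 in irradiated libraries. Irradiated libraries lay above all sham libraries at both times, and every irradiated 6 h library lay below every irradiated 2 h library. The effect was 5.76 ± 0.43 at 2 h and 2.56 ± 0.61 at 6 h with sham libraries 5 and 6. The shift was -3.55 ± 0.61 with all 6 sham libraries (adjusted p = 0.000129) and -3.20 ± 0.75 with libraries 5 and 6 (adjusted p = 0.0196).

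Nfkbie encodes IkB epsilon, an inhibitor that holds NF-kB in the cytoplasm (ENSMUSG00000023947, chromosome 17, 45555716 to 45563169). Its level at 2 h was 10.1 to 20.3 with a median of 15.9 RPKM in sham and 44.4 to 75.6 with a median of 64.6 RPKM in irradiated libraries. At 6 h it was 10.4 to 25.8 RPKM in sham libraries 1 to 4, 13.9 to 15.8 in libraries 5 and 6 and 10.8 to 13.4 with a median of 12 in irradiated libraries. The groups did not overlap at 2 h and overlapped at 6 h. The shift was -2.32 ± 0.25 with all 6 sham libraries (adjusted p = 1.48e-08) and -2.23 ± 0.31 with libraries 5 and 6 (adjusted p = 9.21e-06). Irradiated animals alone differed by -2.25 ± 0.18 between the times, and sham animals by 0.07 ± 0.18.

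Among adhesion molecules and receptors, Vcam1, the ligand of the integrin VLA-4 on leukocytes (ENSMUSG00000027962, chromosome 3, 116109949 to 116129688), was at 0.273 to 0.645 with a median of 0.434 RPKM in sham and 9.09 to 16.6 with a median of 11.1 RPKM in irradiated libraries at 2 h. At 6 h Vcam1 was at 0.362 to 2.11 RPKM in sham libraries 1 to 4, 0.237 to 0.278 in libraries 5 and 6 and 0.317 to 2.15 with a median of 1.49 in irradiated libraries. Every irradiated 6 h library lay below every irradiated 2 h library, and at 6 h irradiated library 4 (0.317 RPKM) and sham library 1 (2.11 RPKM) made the groups overlap. The shift of Vcam1 was -2.53 ± 0.24 (adjusted p = 6.11e-10), and -2.21 ± 0.29 with libraries 5 and 6 (adjusted p = 2.42e-06). The calls of Vcam1, Cxcl10 and Icam1 with libraries 5 and 6 were lost with a pseudocount of 0.1, with voom and on the values as deposited. Those of Cxcl10 and Icam1 were also lost in the fit of the 24 libraries only and with a block for same-numbered libraries of a time point. That of Icam1 was lost without irradiated 2 h library 2 and sham 6 h library 4 as well.

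Tlr2, a receptor for bacterial lipopeptides (ENSMUSG00000027995, chromosome 3, 83836272 to 83841767), was at 20.1 to 33.4 with a median of 26.1 RPKM in sham and 138 to 206 with a median of 155 RPKM in irradiated libraries at 2 h. At 6 h Tlr2 was at 23.3 to 30.3 RPKM in sham libraries 1 to 4, 33.7 to 35.7 in libraries 5 and 6 and 34.1 to 59.6 with a median of 46.8 in irradiated libraries. The 6 h irradiated libraries thus lay below all 2 h irradiated libraries and reached down into the sham range. The shift of Tlr2 was -1.92 ± 0.23 (adjusted p = 1.80e-07), and -2.15 ± 0.28 with libraries 5 and 6 (adjusted p = 2.19e-06).

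Tlr1, the partner of Tlr2 in that receptor, was at 6.28 to 11.5 RPKM in sham and 20.6 to 25.6 RPKM in irradiated libraries at 2 h and stood at 4.80 to 7.17 RPKM in irradiated libraries at 6 h, beside 5.36 to 11.9 RPKM in sham. Icam1, the ligand of the leukocyte integrin LFA-1, was at 5.82 to 20.5 RPKM in sham and 35.5 to 48.6 RPKM in irradiated libraries at 2 h and stood at 11.2 to 18.6 RPKM at 6 h, beside 7.44 to 11.7 RPKM in sham. For both genes the 2 h groups did not overlap and the 6 h groups did. The 6 h overlap was with sham libraries 5 and 6 only for Tlr1 and with a library among 1 to 4 only for Icam1. Shifts were -1.65 ± 0.23 for Tlr1 and -1.19 ± 0.24 for Icam1 (adjusted p = 4.79e-06 and 0.00133), and -1.28 ± 0.27 and -1.17 ± 0.30 with libraries 5 and 6 (adjusted p = 0.00594 and 0.0444). Of the 17 tested genes in the list of NF-kB responsive receptors and adhesion molecules, 4 were lower with either set of sham libraries, and these were the 4 named here. In this list 1 was higher with all 6 and 0 with libraries 5 and 6. Over all genes 5.56% were higher and 3.72% lower with all 6, and 0.365% and 0.375% with libraries 5 and 6. The median shift of the list was -0.27 with all 6 and -0.30 with libraries 5 and 6, beside 0.09 and 0.02 for all genes tested.

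The next list holds genes that carry or restrain the NF-kB signal. Of the 19 tested NF-kB subunits and inhibitors, 9 were lower with all 6 sham libraries (Nfkb1, Nfkb2, Relb, Nfkbie, Tnfaip3, Tnip1, Cyld, Chuk and Birc3) and 0 higher, beside 3.72% of all genes lower. With libraries 5 and 6, Nfkbie and Birc3 were lower and the other 17 did not pass, beside 0.375% of all genes lower. The median shift was -0.42 and -0.30. Birc3, a ubiquitin ligase of the TNF receptor complex that protects cells from death, was at 2.02 to 3.53 with a median of 2.69 RPKM in sham and 6.10 to 9.19 with a median of 7.18 RPKM in irradiated libraries at 2 h. At 6 h irradiated libraries were at 1.49 to 2.03 with a median of 1.67 RPKM, beside 1.83 to 3.42 in sham, so that the groups overlapped. The shift of Birc3 was -1.41 ± 0.17 (adjusted p = 1.58e-07), and -1.34 ± 0.21 with libraries 5 and 6 (adjusted p = 8.74e-05).

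Nfkb2, the p100 subunit, rose by 2.61 ± 0.38 at 2 h, and its shift of -2.30 ± 0.54 passed with all 6 sham libraries only (adjusted p = 0.361 with libraries 5 and 6). Tnip1, a partner of the A20 inhibitor, had a shift of -0.70 ± 0.16 with all 6 (adjusted p = 0.00497) and -0.72 ± 0.20 with libraries 5 and 6 (adjusted p = 0.0936). Tnfaip3, which encodes A20 itself, had -1.41 ± 0.40 with all 6 (adjusted p = 0.0193) and -0.48 ± 0.43 with libraries 5 and 6 (adjusted p = 0.893). Its sham 6 h level was 23.3 to 43 RPKM in libraries 1 to 4 and 10.3 to 12.1 in libraries 5 and 6. Nfkbia, the IkB alpha gene, had a shift of -0.04 ± 0.31 (adjusted p = 0.959), with levels of 101 to 180.4 RPKM at 2 h and 100.5 to 149 RPKM at 6 h in irradiated libraries.

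**Figure D3:**
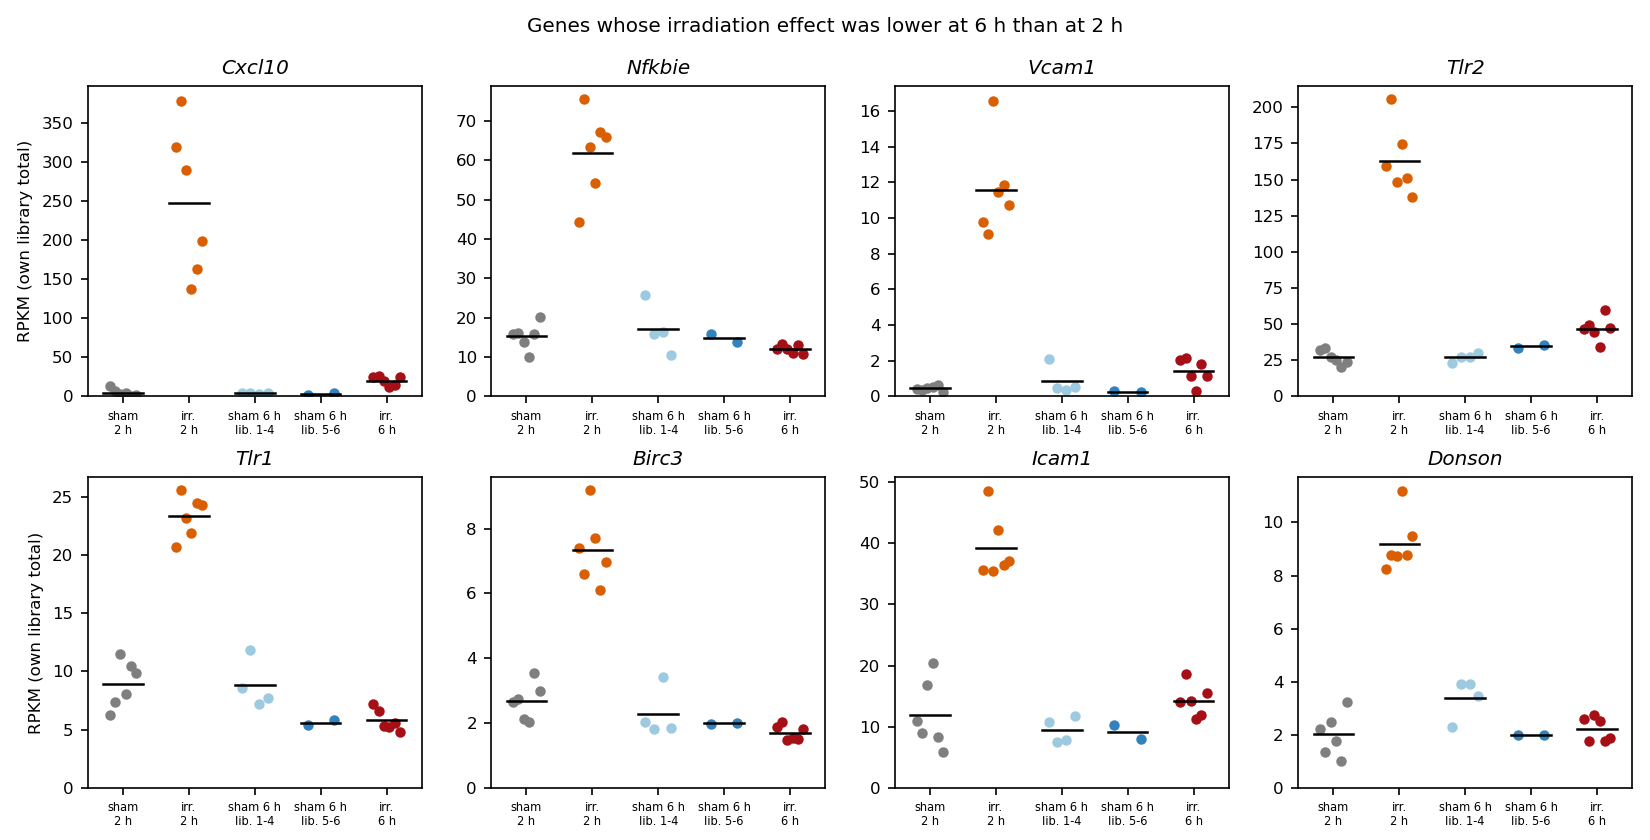
RPKM of 8 genes with a lower shift in each library (points) of the sham and irradiated 2 h groups, sham 6 h libraries 1 to 4, sham 6 h libraries 5 and 6 and the irradiated 6 h group, with the mean of each set as a bar; each panel has its own linear scale from 0. Irradiated 2 h libraries stand above all other libraries in each of the 8 panels, and irradiated 6 h libraries lie below them.

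Other genes of immune signalling had faded as well. Cd69, an early activation antigen of leukocytes, was at 0 to 0.216 RPKM in sham and 1.21 to 4.05 RPKM in irradiated libraries at 2 h and was at 0 to 1.02 RPKM in irradiated libraries at 6 h (shift -1.39 ± 0.23, and -1.42 ± 0.29 with libraries 5 and 6). Gpr84, a receptor for medium-chain fatty acids, was at 18.8 to 35 RPKM in sham and 82.1 to 150.3 RPKM in irradiated libraries at 2 h and 39.2 to 71.7 RPKM in irradiated libraries at 6 h (-0.95 ± 0.28 and -1.45 ± 0.32). Icosl, a co-stimulatory ligand of T cells, was at 5.19 to 8.03 RPKM in sham and 16.8 to 27.3 RPKM in irradiated libraries at 2 h and 9.28 to 15.3 RPKM in irradiated libraries at 6 h (-1.13 ± 0.25 and -1.49 ± 0.29). For these 3 genes the irradiated 2 h libraries lay above every other library. With voom the call of Cd69 was lost with either sham set. Casp4, which senses cytosolic lipopolysaccharide, had shifts of -1.24 ± 0.19 and -1.22 ± 0.23. Il13ra1, a receptor chain for interleukin 13, had -1.15 ± 0.18 and -0.99 ± 0.22; irradiated 6 h libraries, at 2.52 to 2.84 RPKM, lay below all sham 6 h libraries, at 4.12 to 6.39 RPKM. Cd86, a co-stimulatory molecule, had -0.46 ± 0.14 and -0.69 ± 0.15. Tmem173, which encodes the DNA sensor adaptor STING, had -0.74 ± 0.22 and -1.28 ± 0.23, and its sham 6 h levels of 27.5 to 36.8 RPKM in libraries 1 to 4 and 56.6 to 59.1 in libraries 5 and 6 did not overlap.

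Several calls with libraries 5 and 6 in these paragraphs rested on both libraries. Without library 5 the adjusted p was 0.0597 for Cxcl10, 0.0598 for Tlr1, 0.546 for Icam1, 0.0834 for Cd69, 0.355 for Gpr84, 0.135 for Icosl and 0.232 for Il13ra1. Without library 6 it was 0.448 for Cxcl10, 0.127 for Tlr1, 0.143 for Icam1, 0.0535 for Cd69, 0.0533 for Casp4, 0.833 for Cd86 and 0.0964 for Il13ra1. Nfkbie, Vcam1, Tlr2, Birc3 and Tmem173 passed without either. All of these genes kept a negative shift without library 5 and without library 6. Counted over both sham sets, Nfkbie, Tlr2 and Birc3 kept their call in 26 of 28 other choices of processing. Vcam1 did so in 24 and Tmem173 in 19. The losses of Tmem173 included the fit of the 24 libraries only and the fit without the 2 shallow libraries.

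Not every inflammatory gene faded. Of 12 tested chemokines, 2 were higher and 2 lower with all 6 sham libraries, beside 5.56% and 3.72% of all genes. Cxcl10 alone passed with libraries 5 and 6, as lower, beside 0.375% of all genes lower. Ccl4, a chemokine for monocytes and T cells, was at 31.8 to 197 with a median of 129 RPKM in sham and 57.6 to 274 with a median of 127 RPKM in irradiated libraries at 2 h, and the groups overlapped. Its 6 h level was 61.2 to 128 with a median of 95.4 RPKM in sham and 446 to 562 with a median of 476 RPKM in irradiated libraries, and the groups lay apart. Its shift was 2.05 ± 0.51 with all 6 (adjusted p = 0.00803) and 1.83 ± 0.63 with libraries 5 and 6 (adjusted p = 0.277). Its neighbour Ccl3 had 1.68 ± 0.51 (adjusted p = 0.0295) and 1.47 ± 0.63 (adjusted p = 0.48).

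Cxcl16, a membrane-bound chemokine, went the other way, from an effect of 3.25 ± 0.26 at 2 h to 1.83 ± 0.38 at 6 h with libraries 5 and 6. Its shift was -1.51 ± 0.37 with all 6 (adjusted p = 0.00809) and -1.42 ± 0.46 with libraries 5 and 6 (adjusted p = 0.222). Ccl2 and Ccl12, both monocyte chemokines, were raised at both times. Ccl2 had effects of 1.48 ± 0.30 at 2 h and 1.95 ± 0.41 at 6 h with libraries 5 and 6, and a shift of -0.07 ± 0.42 with all 6 and 0.47 ± 0.50 with libraries 5 and 6 (adjusted p = 0.942 and 0.919). For the same sets Ccl12 had effects of 1.66 ± 0.30 and 1.75 ± 0.41 and a shift of 0.56 ± 0.42 with all 6 and 0.09 ± 0.50 with libraries 5 and 6 (adjusted p = 0.444 and 0.992).

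Of 11 tested inflammatory cytokines and enzymes, Csf1 and Osm were higher and Ptgs2 lower with all 6 sham libraries, and none passed with libraries 5 and 6. Over all genes 5.56% were higher and 3.72% lower with all 6, and 0.740% passed either way with libraries 5 and 6. Tnf was raised by 3.04 ± 0.45 at 2 h and by 2.61 ± 0.64 at 6 h with libraries 5 and 6, and its shift was -0.28 ± 0.63 with all 6 and -0.43 ± 0.79 with libraries 5 and 6 (adjusted p = 0.845 and 0.956). Irradiated levels of Tnf were 23.2 to 73.9 RPKM at 2 h and 11.4 to 72.7 RPKM at 6 h, which overlap. Il1b, with effects of 1.49 ± 0.29 and 0.32 ± 0.41, had a shift of -0.70 ± 0.42 with all 6 and -1.16 ± 0.50 with libraries 5 and 6 (adjusted p = 0.312 and 0.494). Ptgs2, the inducible cyclooxygenase, was at 1.19 to 3.21 RPKM in irradiated libraries at 2 h and 0.324 to 0.714 RPKM at 6 h, with a shift of -0.84 ± 0.21 with all 6 (adjusted p = 0.00872). Csf1, the growth factor of microglia, was at 3.51 to 6.64 RPKM at 2 h and 8.88 to 15.3 RPKM at 6 h, with 1.41 ± 0.42 (adjusted p = 0.0287). Osm, an interleukin 6 family cytokine, had 2.15 ± 0.54 (adjusted p = 0.0092).

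Genes of the interferon response and of antigen presentation are read beside the share over all genes, 9.28% with all 6 sham libraries, or 0.740% when libraries 5 and 6 stood alone. Of 39 tested interferon-stimulated genes, Zbp1, Dhx58 and Parp12 were higher and Parp14 lower with all 6 sham libraries, and none passed with libraries 5 and 6. Ifit1 had a shift of 0.14 ± 0.26 and Ifit3 of 0.61 ± 0.39 (adjusted p = 0.806 and 0.352). Of 19 tested genes of MHC class I and peptide loading, Tap1 and H2-Q4 were lower and Tapbp higher with all 6, and none passed with libraries 5 and 6. Tap1, a peptide transporter that p53 also induces, was at 4.82 to 14.9 RPKM in sham and 30.3 to 47.8 RPKM in irradiated libraries at 2 h and was at 16.1 to 26.1 RPKM in irradiated libraries at 6 h, with a shift of -0.96 ± 0.28 with all 6 (adjusted p = 0.026). H2-K1 had 0.36 ± 0.36 (adjusted p = 0.588). Of 9 tested genes of MHC class II and co-stimulation, Cd83 and Cd86 were lower with all 6 and Cd86 also with libraries 5 and 6.

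Targets of p53 differed with all 6 sham libraries: for some no shift passed, others fell back and others grew. In the p53 lists described next, 0 genes passed as higher with libraries 5 and 6. Cdkn1a, the p21 inhibitor of cyclin-dependent kinases, was at 86.5 to 156 with a median of 123 RPKM at 2 h and 116 to 199 with a median of 148 RPKM at 6 h in irradiated libraries, against at most 6.99 RPKM in any sham library of either time. Its shift was -0.02 ± 0.35 with all 6 (adjusted p = 0.979) and -0.70 ± 0.40 with libraries 5 and 6 (adjusted p = 0.709). Ccng1, cyclin G1, was at 99.9 to 161 with a median of 117 RPKM and 98.2 to 141 with a median of 118 RPKM in irradiated libraries, with a shift of -0.05 ± 0.16 (adjusted p = 0.887). Phlda3, an inhibitor of Akt signalling, was at 13.4 to 31.1 and 11.8 to 26.4 RPKM, with -0.19 ± 0.25 (adjusted p = 0.711). The irradiated libraries of both times overlapped for these 3 genes.

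Of 6 tested feedback genes of p53, 3 were lower and 0 higher with all 6 sham libraries, and Ppm1d alone was lower with libraries 5 and 6. The shares of all genes that were lower were 3.72% with all 6 and 0.375% with libraries 5 and 6. Mdm2, the ligase that degrades p53, was at 1.87 to 4.53 with a median of 3.68 RPKM in sham and 24.8 to 48.4 with a median of 30.7 RPKM in irradiated libraries at 2 h. Its 6 h level was 2.81 to 3.93 RPKM in sham and 10.54 to 17.5 with a median of 13.2 RPKM in irradiated libraries. Irradiated libraries stood above sham at both times, and those of 6 h below those of 2 h. The shift of Mdm2 was -1.25 ± 0.23 with all 6 (adjusted p = 0.000342) and -1.08 ± 0.28 with libraries 5 and 6 (adjusted p = 0.0517), which did not pass. Ppm1d, the phosphatase Wip1 that resets ATM and p53, was at 0.358 to 0.564 RPKM in sham and 1.199 to 2.06 RPKM in irradiated libraries at 2 h, and at 6 h irradiated libraries (0.498 to 0.926 RPKM) overlapped sham (0.354 to 0.871 RPKM). Its shift was -0.71 ± 0.14 (adjusted p = 0.0011), and -0.80 ± 0.17 with libraries 5 and 6 (adjusted p = 0.00891; 0.172 without library 5 and 0.0817 without library 6). The third was Rchy1, another ligase for p53, at -1.11 ± 0.34 with all 6 (adjusted p = 0.0328). The median shift of the 6 was -0.38 with all 6 and -0.37 with libraries 5 and 6.

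Death genes went both ways. Of 12 tested p53 targets of apoptosis and cell death, 4 were higher (Bax, Perp, Pidd1 and Triap1) and 3 lower (Pmaip1, Apaf1 and Trp53inp1) with all 6 sham libraries. Over all genes 5.56% were higher and 3.72% lower with all 6, and 0.365% and 0.375% with libraries 5 and 6. Apaf1 alone passed with libraries 5 and 6, as lower. Apaf1, the core of the apoptosome, was at 0.518 to 1.004 with a median of 0.772 RPKM in sham and 2.62 to 3.16 with a median of 2.95 RPKM in irradiated libraries at 2 h. Irradiated 6 h libraries were at 0.624 to 1.17 with a median of 0.960 RPKM, beside 0.356 to 0.702 RPKM in sham. Its groups lay apart at 2 h and overlapped at 6 h. Its shift was -0.82 ± 0.13 (adjusted p = 2.22e-05), and -0.77 ± 0.16 with libraries 5 and 6 (adjusted p = 0.00376; 0.0352 without library 5 and 0.118 without library 6).

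Pmaip1, the BH3 protein Noxa, was at 20.5 to 55.9 with a median of 34.6 RPKM in irradiated libraries at 2 h and 5.13 to 13.3 with a median of 8.74 RPKM at 6 h, above all sham libraries at both times. Its shift was -2.02 ± 0.41 with all 6 (adjusted p = 0.00138) and -1.56 ± 0.50 with libraries 5 and 6 (adjusted p = 0.214). Bax, a pore-forming death effector, was at 6.78 to 15.6 RPKM at 2 h and 51 to 64.1 RPKM at 6 h in irradiated libraries. In sham 6 h libraries Bax was at 1.05 to 4.13 RPKM in libraries 1 to 4 and 8.73 to 14 RPKM in libraries 5 and 6. Its shift was 1.48 ± 0.48 with all 6 (adjusted p = 0.0429) and 0.21 ± 0.49 with libraries 5 and 6 (adjusted p = 0.967). Pidd1, a death domain scaffold, had 1.23 ± 0.30 with all 6 (adjusted p = 0.0063) and 1.02 ± 0.36 with libraries 5 and 6 (adjusted p = 0.312). Perp, a membrane protein of epithelial junctions and cell death, had 0.80 ± 0.19 and 0.55 ± 0.23 (adjusted p = 0.00691 and 0.478). Ddias, an anti-apoptotic gene of the DNA damage response, was lower both ways (-1.18 ± 0.16 and -1.15 ± 0.20), with 0 to 0.195 RPKM in sham and 2.27 to 4.17 RPKM in irradiated libraries at 2 h and 0.452 to 1.15 RPKM in irradiated libraries at 6 h. With voom the call of Ddias was lost with either sham set.

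Of 9 tested p53 targets of arrest, Plk3 and Psrc1 were higher and Plk2 lower with all 6 sham libraries, and none passed with libraries 5 and 6. Each list of this paragraph stands beside 5.56% of all genes higher and 3.72% lower with all 6. With libraries 5 and 6 the share of all genes called was 0.740%. Plk2, a polo-like kinase, was at 17.3 to 39.8 RPKM at 2 h and 8.58 to 15.4 RPKM at 6 h in irradiated libraries, with a shift of -1.12 ± 0.33 (adjusted p = 0.0268) and -0.82 ± 0.41 with libraries 5 and 6 (adjusted p = 0.63). Of 16 p53 targets of stress and metabolism, Gdf15 and Dcxr were higher and Sesn1, Slc19a2, Ercc5 and Tap1 lower with all 6, and none passed with libraries 5 and 6. Gdf15, a secreted stress cytokine, was at 2.45 to 28.1 with a median of 11.3 RPKM at 2 h and 38.4 to 63.4 with a median of 49.9 RPKM at 6 h in irradiated libraries, with no overlap, and at most 1.90 RPKM in sham libraries. Its shift was 2.37 ± 0.49 with all 6 (adjusted p = 0.00152) and 2.26 ± 0.61 with libraries 5 and 6 (adjusted p = 0.0681). Slc19a2, a thiamine transporter, was at 12.5 to 23.8 RPKM at 2 h and 3.87 to 8.28 RPKM at 6 h, with -1.13 ± 0.24 (adjusted p = 0.00168) and -1.10 ± 0.29 (adjusted p = 0.0593).

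The remaining genes with a lower shift both ways had mixed roles. Donson, a factor of replication forks, was at 1.03 to 3.23 RPKM in sham and 8.25 to 11.2 RPKM in irradiated libraries at 2 h. Its 6 h level was 1.78 to 2.74 RPKM in irradiated and 1.97 to 3.92 RPKM in sham libraries (shift -2.06 ± 0.23, adjusted p = 3.13e-08, and -1.70 ± 0.27, adjusted p = 0.000123); it overlaps Son and Atp5o. Cpd, a carboxypeptidase of the Golgi, was at 1.45 to 2.004 RPKM in sham and 6.06 to 8.31 RPKM in irradiated libraries at 2 h and was at 1.57 to 2.26 RPKM at 6 h, beside 1.36 to 2.27 RPKM in sham (-1.53 ± 0.14 and -1.38 ± 0.17). Orai2, a calcium channel subunit, was at 2.37 to 5.09 RPKM in sham and 11.1 to 18.1 RPKM in irradiated libraries at 2 h and was at 5.53 to 8.24 RPKM at 6 h, still above all sham 6 h libraries, at 3.51 to 4.52 RPKM (-1.07 ± 0.18 and -1.19 ± 0.22).

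Rassf4, a Ras association domain protein, was at 2.36 to 3.83 RPKM in sham and 5.71 to 8.43 RPKM in irradiated libraries at 2 h and was at 1.98 to 2.97 RPKM at 6 h, beside 2.94 to 5.498 RPKM in sham (-1.46 ± 0.19 and -1.43 ± 0.23). Creb1, the cyclic AMP responsive transcription factor, had shifts of -1.29 ± 0.15 and -1.04 ± 0.17, and Tbc1d8, a Rab GTPase-activating protein, -1.17 ± 0.11 and -1.31 ± 0.13. Ehd1, a membrane recycling ATPase, had -1.78 ± 0.30 and -1.74 ± 0.38, and Rnf19b, a ubiquitin ligase, -1.43 ± 0.29 and -1.62 ± 0.35. These 4 genes were raised at 2 h and overlapped sham at 6 h. Cdk6, the G1 kinase, had -0.70 ± 0.13 and -0.65 ± 0.16, and Elk3, an ETS factor, -0.82 ± 0.13 and -0.87 ± 0.16. Galnt7, a glycosyltransferase, had -0.62 ± 0.11 and -0.60 ± 0.13, and Mtmr14, a phosphoinositide phosphatase, -1.11 ± 0.16 and -0.99 ± 0.19. Tspan33, a tetraspanin, had -0.71 ± 0.20 and -1.04 ± 0.23, and Mif4gd -1.03 ± 0.29 and -1.44 ± 0.33. Of the genes in this paragraph, Rassf4, Creb1 and Tbc1d8 stayed past the threshold without library 5 and without library 6. The others lost it without at least 1 of the libraries, with adjusted p up to 0.415 for Mif4gd without library 5.

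Cd164, a sialomucin, was the gene that fell only at 6 h when libraries 5 and 6 were the sham. It was at 120.3 to 144 with a median of 126 RPKM at 2 h in irradiated libraries, 94.6 to 144 RPKM in sham and 42.5 to 54 with a median of 45.4 RPKM in irradiated libraries at 6 h. Its irradiated 6 h libraries lay below every other library. The shift of Cd164 was -1.18 ± 0.18 (adjusted p = 1.74e-05), and -0.83 ± 0.20 with libraries 5 and 6 (adjusted p = 0.0256; 0.234 without library 5 and 0.239 without library 6). Nfat5, the tonicity-responsive factor, was also below all sham libraries at 6 h, at 0.404 to 0.979 RPKM (-0.79 ± 0.12 and -0.62 ± 0.14). Its sham 6 h levels were 1.39 to 1.502 RPKM in libraries 1 to 4 and 0.987 to 1.10 RPKM in libraries 5 and 6. Pdia6, a disulfide isomerase of the endoplasmic reticulum, had -0.52 ± 0.15 and -0.71 ± 0.18. The predicted gene Gm27960 had no read in sham 2 h libraries or in irradiated 6 h libraries, and its shift rests on 0 to 13.7 RPKM in irradiated 2 h libraries and, with libraries 5 and 6, on their 1.99 to 2.55 RPKM.

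Among genes whose effect grew from 2 h to 6 h was Matn1, which encodes matrilin 1, an extracellular matrix protein of cartilage (ENSMUSG00000040533, chromosome 4, 130944385 to 130955475). Matn1 had no read in the 6 sham 2 h libraries and 0.720 to 4.09 with a median of 1.60 RPKM in irradiated 2 h libraries. The 6 h level was 0 to 0.0423 RPKM in sham and 9.63 to 16.1 with a median of 14.3 RPKM in irradiated libraries. Irradiated libraries stood apart from sham at both times and from each other between the times. The shift was 2.44 ± 0.21 with all 6 (adjusted p = 4.85e-11) and 2.43 ± 0.26 with libraries 5 and 6 (adjusted p = 2.60e-08). Since sham 2 h libraries held no read, the size of this shift depends on the added 1, and with voom on the recovered reads the call with libraries 5 and 6 was lost.

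Sulf2, an extracellular heparan sulfate 6-O-endosulfatase (ENSMUSG00000006800, chromosome 2, 166073089 to 166155663), was at 0.743 to 1.15 with a median of 0.825 RPKM in sham and 3.23 to 5.53 with a median of 3.99 RPKM in irradiated libraries at 2 h. At 6 h it was at 0.937 to 1.34 RPKM in sham libraries 1 to 4, 0.562 to 1.03 in libraries 5 and 6 and 12.4 to 14.9 with a median of 13.5 RPKM in irradiated libraries. None of these groups overlapped except the sham groups. The shift was 1.45 ± 0.14 with all 6 (adjusted p = 6.11e-10) and 1.59 ± 0.17 with libraries 5 and 6 (adjusted p = 2.60e-08). Sulf2 overlaps Ncoa3.

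The other 5 genes raised at both times and more at 6 h had higher irradiated levels at 6 h than at 2 h in every library. Glipr2, a Golgi protein of the CAP family, was at 0.233 to 0.857 RPKM at 2 h and 4.15 to 7.21 RPKM at 6 h in irradiated libraries, and at most 0.295 RPKM in sham, where the groups overlapped at 2 h (2.11 ± 0.19 and 2.10 ± 0.23, adjusted p = 1.49e-10 and 6.69e-08). Glipr1, a CAP protein known as a p53 target, was at 0.930 to 2.23 and 4.79 to 7.11 RPKM, and at most 0.522 RPKM in sham (1.32 ± 0.17 and 1.30 ± 0.21, adjusted p = 8.44e-07 and 0.000189). With voom the calls of all 5 genes of this paragraph with libraries 5 and 6 were lost. Those of Glipr1, Cep170b and Fam198b were then lost with all 6 sham libraries too. Cep170b, a microtubule-associated protein, was at 0.310 to 0.948 and 1.92 to 3.02 RPKM (1.19 ± 0.13 and 1.17 ± 0.16). Fam198b, a Golgi membrane protein, was at 0.409 to 1.04 and 1.73 to 2.27 RPKM (0.90 ± 0.13 and 0.93 ± 0.16), and Crip2, a LIM domain protein, at 0.132 to 0.669 and 0.972 to 2.74 RPKM (1.08 ± 0.18 and 1.08 ± 0.23). For each of these 5 the irradiated 6 h libraries lay above all others, and sham levels were near 0. Of the 5, Crip2 lost the call with libraries 5 and 6 when 1 of the pair was left out (adjusted p = 0.0932 without library 5 and 0.0964 without library 6). With a pseudocount of 0.1 the shifts of Glipr1, Cep170b, Fam198b and Crip2 no longer passed with libraries 5 and 6.

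A second set appeared at 6 h only. Slamf9, a receptor of the SLAM family on myeloid cells (ENSMUSG00000026548, chromosome 1, 172475358 to 172478575), was at 10.7 to 21 with a median of 13.6 RPKM in sham and 7.13 to 31.2 with a median of 13.7 RPKM in irradiated libraries at 2 h. Levels at 6 h were 7.32 to 24.2 RPKM in sham libraries 1 to 4, 18.3 to 23.9 in libraries 5 and 6 and 73.3 to 94.1 with a median of 84 RPKM in irradiated libraries. The groups overlapped at 2 h and lay apart at 6 h. The shift was 2.57 ± 0.39 with all 6 (adjusted p = 1.77e-05) and 1.99 ± 0.46 with libraries 5 and 6 (adjusted p = 0.0161; 0.295 without library 5 and 0.0964 without library 6).

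Flcn, folliculin, a regulator of mTORC1 at the lysosome (ENSMUSG00000032633, chromosome 11, 59791408 to 59810016), was at 6.31 to 9.97 with a median of 7.87 RPKM in irradiated libraries at 2 h and 17 to 22.4 with a median of 20.7 RPKM at 6 h, beside 8.14 to 13.3 and 9.95 to 15.02 RPKM in sham. At 6 h all irradiated libraries lay above all sham libraries. Its shift was 1.09 ± 0.17 (adjusted p = 1.78e-05), and 1.17 ± 0.20 with libraries 5 and 6 (adjusted p = 0.000536; 0.0566 without library 6). Ephx1, the microsomal epoxide hydrolase, was at 0.339 to 0.868 RPKM at 2 h and 3.61 to 5.70 RPKM at 6 h (1.74 ± 0.16 and 1.35 ± 0.17, adjusted p = 3.68e-10 and 1.37e-06). Alox5, the 5-lipoxygenase of leukotriene synthesis, was at 0.537 to 1.15 and 1.85 to 3.90 RPKM (1.42 ± 0.20 and 1.40 ± 0.25, adjusted p = 5.54e-06 and 0.00073). Mmp2, the matrix metalloproteinase gelatinase A, was at 0.810 to 1.86 and 3.76 to 6.98 RPKM (1.02 ± 0.21 and 1.28 ± 0.24, adjusted p = 0.00111 and 0.00172; 0.107 without library 5). Cpt1c, a brain carnitine palmitoyltransferase relative that p53 is known to induce, was at 0.0898 to 1.74 and 2.08 to 3.59 RPKM (1.43 ± 0.22 and 1.40 ± 0.27; adjusted p = 0.0595 without library 5). Impact, an inhibitor of the kinase GCN2, was at 1.98 to 3.39 and 5.03 to 5.95 RPKM (0.97 ± 0.22 and 1.34 ± 0.25).

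Further genes of this set were Exoc4, an exocyst subunit (0.217 to 0.299 RPKM at 2 h and 1.12 to 1.27 RPKM at 6 h in irradiated libraries, 0.80 ± 0.10 and 0.82 ± 0.12), and Capg, an actin capping protein (0.0843 to 0.815 and 2.03 to 3.14 RPKM, 1.25 ± 0.18 and 1.04 ± 0.21). Snx8, a sorting nexin, had 1.13 ± 0.16 and 1.05 ± 0.20, Ttyh2, a membrane channel protein, 1.08 ± 0.18 and 0.84 ± 0.21, and Fblim1, a filamin partner, 1.49 ± 0.22 and 1.34 ± 0.27. Arhgap19, a GTPase-activating protein, had 0.87 ± 0.16 and 0.91 ± 0.20, and Cln8, a receptor that loads lysosomal enzymes for export from the endoplasmic reticulum, 0.94 ± 0.17 and 0.82 ± 0.20. For all 7 genes of this paragraph the irradiated 6 h libraries lay above all sham 6 h and all irradiated 2 h libraries. Exoc4 and Snx8 stayed past the threshold without library 5 and without library 6, and the other 5 did not. Pmp22, a myelin protein that is also found in other cells, and Atp6v1c1, a subunit of the proton pump of lysosomes, had higher shifts both ways (1.65 ± 0.24 and 1.09 ± 0.26, and 0.71 ± 0.17 and 0.82 ± 0.21) without passing at either time with libraries 5 and 6. Neither shift passed without library 5 or without library 6. Sham 6 h levels of Pmp22 were 6.39 to 9.22 RPKM in libraries 1 to 4 and 13 to 14.4 RPKM in libraries 5 and 6.

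**Figure D4:**
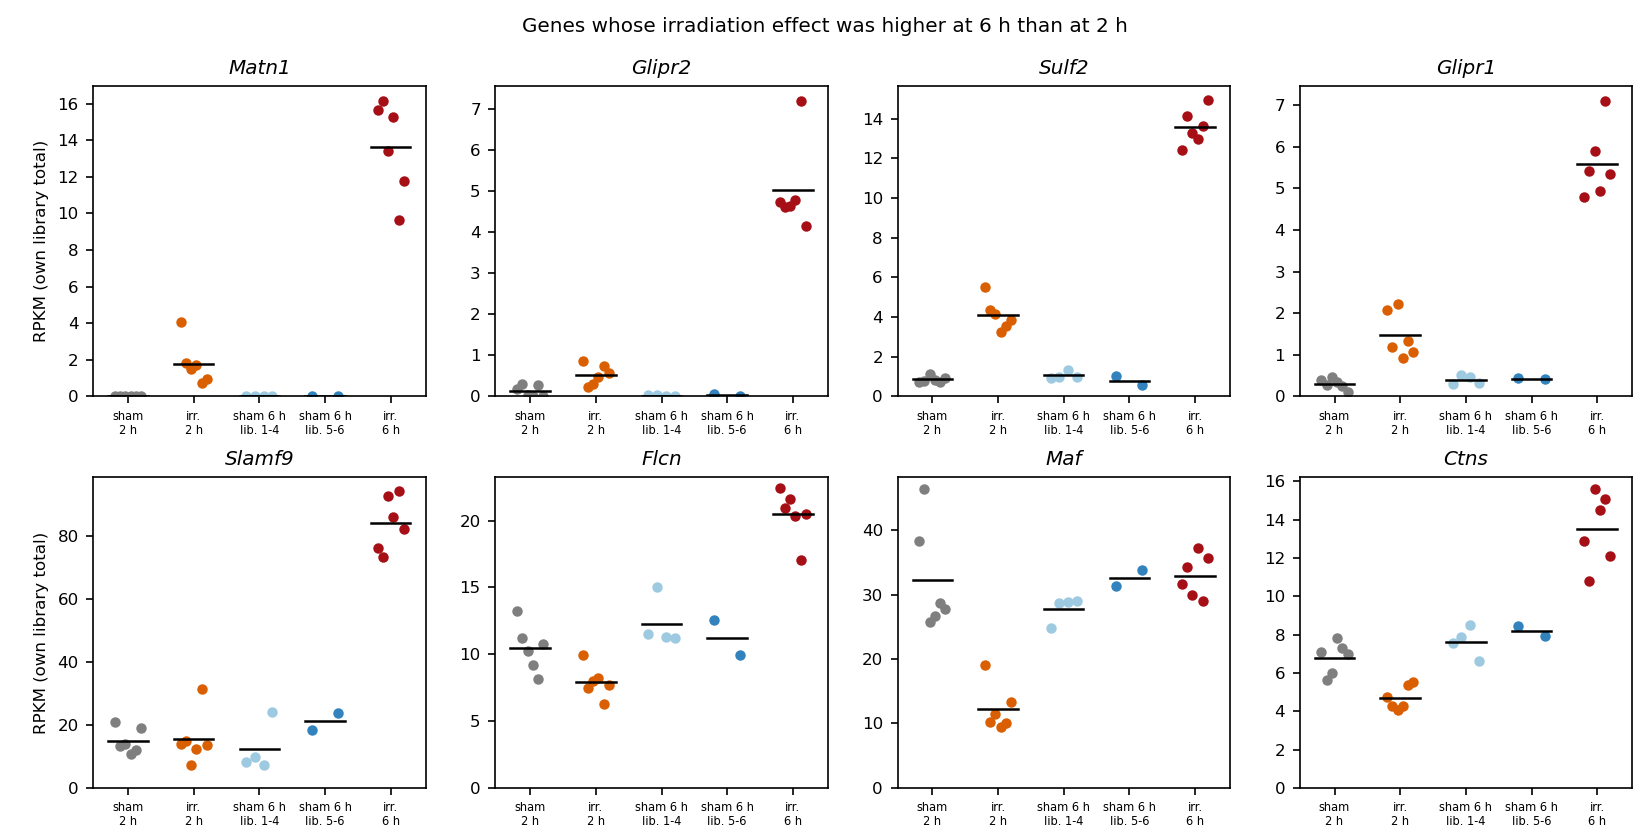
RPKM of 8 genes with a higher shift in each library (points), laid out as for the lower genes, with the mean of each set as a bar and a linear scale from 0 in each panel. In Matn1, Glipr2, Sulf2, Glipr1, Slamf9 and Flcn irradiated 6 h libraries stand above all others, whereas Maf is low in irradiated 2 h libraries and overlaps sham at 6 h.

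A further set was lower at 2 h and not called at 6 h with sham libraries 5 and 6. Maf, a transcription factor of homeostatic microglia and other macrophages (ENSMUSG00000055435, chromosome 8, 115682942 to 115707794), was at 25.8 to 46.3 with a median of 28.2 RPKM in sham and 9.45 to 19 with a median of 10.8 RPKM in irradiated libraries at 2 h. At 6 h it was at 24.9 to 29 RPKM in sham libraries 1 to 4, 31.3 to 33.8 in libraries 5 and 6 and 28.9 to 37.3 with a median of 32.9 RPKM in irradiated libraries. Irradiated libraries lay below all sham libraries at 2 h and overlapped them at 6 h. The shift was 1.49 ± 0.19 with all 6 (adjusted p = 8.35e-07) and 1.34 ± 0.23 with libraries 5 and 6 (adjusted p = 0.000536). Sham animals differed by -0.10 ± 0.14 between the times and irradiated animals by 1.39 ± 0.14.

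Ctns, the cystine exporter of lysosomes, was at 5.62 to 7.80 RPKM in sham and 4.05 to 5.53 RPKM in irradiated libraries at 2 h. At 6 h it was at 6.63 to 8.53 and 10.8 to 15.6 RPKM, with irradiated libraries above all sham libraries, while the effect did not pass with libraries 5 and 6 (0.65 ± 0.18, adjusted p = 0.0524). Its shift was 1.16 ± 0.18 and 1.10 ± 0.23 (adjusted p = 3.33e-05 and 0.00458; 0.0554 without library 5 and 0.105 without library 6). Tgfa, a ligand of the epidermal growth factor receptor, was at 2.45 to 3.92 and 1.21 to 1.69 RPKM at 2 h and 2.07 to 3.04 and 2.12 to 3.46 RPKM at 6 h in sham and irradiated libraries (0.79 ± 0.13 and 0.65 ± 0.15). With all 6 sham libraries Ctns and Lpcat1 were called higher at 6 h (0.71 ± 0.13 and 0.34 ± 0.12). Lpcat1, a lysophospholipid acyltransferase, was at 4.91 to 9.66 and 3.14 to 4.004 RPKM at 2 h and 5.02 to 8.70 and 7.77 to 10.46 RPKM at 6 h (1.13 ± 0.17 and 0.94 ± 0.21). For Tgfa and Lpcat1 the groups lay apart at 2 h and overlapped at 6 h. Neither passed without library 5 (adjusted p = 0.191 and 0.116) or without library 6 (0.239 and 0.135).

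The same calls, lower at 2 h and none at 6 h with libraries 5 and 6, were made for Bid, a pro-apoptotic BH3 protein (0.62 ± 0.19 and 0.90 ± 0.22), Jup, plakoglobin of cell junctions (1.02 ± 0.15 and 0.72 ± 0.16), and Jade2, a histone acetylation scaffold (0.97 ± 0.22 and 1.09 ± 0.28). They were made for Lpxn, a paxillin family adaptor (0.73 ± 0.19 and 0.92 ± 0.23), and Rasa3, a Ras GTPase-activating protein (0.53 ± 0.17 and 0.86 ± 0.19). They were also made for Pdxk, the kinase of vitamin B6 (1.13 ± 0.21 and 1.06 ± 0.26), Amz1, a metallopeptidase (1.25 ± 0.20 and 0.94 ± 0.23), Tmem86a, a lysoplasmalogenase (1.56 ± 0.22 and 1.07 ± 0.24), and Slc35c2, a nucleotide sugar transporter family member (2.19 ± 0.32 and 1.25 ± 0.30). With all 6 sham libraries, Pdxk, Amz1, Tmem86a and Slc35c2 were called higher at 6 h, by 0.63 ± 0.15, 0.47 ± 0.14, 0.81 ± 0.15 and 1.08 ± 0.22. For Pdxk and Tmem86a irradiated 6 h libraries lay above all 6 sham 6 h libraries. Sham 6 h levels of Slc35c2 and Tmem86a split with the libraries, at 3.31 to 3.69 RPKM in libraries 1 to 4 and 9.84 to 12.3 RPKM in libraries 5 and 6 for Slc35c2, and at 102 to 112 and 175 to 185 RPKM for Tmem86a. Counted over both sham sets, Rasa3 kept its call in 10 of 26 other choices of processing and Bid in 13 of 28. With all 6 sham libraries, the call of Rasa3 was also lost when single libraries of any of the 4 groups were left out. That of Bid was lost without sham 2 h library 6, sham 6 h library 3 or irradiated 6 h library 6. With libraries 5 and 6, each of the 9 genes in this paragraph lost the call when library 5 or library 6 was left out, with adjusted p up to 0.617 for Jade2 without library 5.

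Of 44 tested homeostatic genes of microglia, 6 had a higher and 4 a lower shift with all 6 sham libraries, beside 9.28% of all genes either way. Maf alone passed with libraries 5 and 6, beside 0.740% of all genes. The median shift was 0.05 and -0.03. P2ry12, the purinergic receptor of process movement, was at 86.5 to 121 RPKM in sham and 58.1 to 68.1 RPKM in irradiated libraries at 2 h, and at 90.2 to 108 and 38.6 to 52.2 RPKM at 6 h. Its effect was -0.60 ± 0.13 at 2 h and -1.08 ± 0.18 at 6 h with libraries 5 and 6, and its shift of -0.52 ± 0.18 with all 6 and -0.47 ± 0.22 with libraries 5 and 6 did not pass (adjusted p = 0.0612 and 0.591). Sall1, a transcription factor of microglial identity, had effects of -0.70 ± 0.18 and -0.60 ± 0.25 and a shift of -0.17 ± 0.26 with all 6 and 0.10 ± 0.31 with libraries 5 and 6 (adjusted p = 0.748 and 0.978). Tmem119 had a shift of 0.06 ± 0.26 and Cx3cr1, the sorting marker, of -0.01 ± 0.13 (adjusted p = 0.915 and 0.965). Irf8, a myeloid transcription factor, had 0.75 ± 0.21 with all 6 (adjusted p = 0.0175) and 0.23 ± 0.22 with libraries 5 and 6 (adjusted p = 0.896).

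Lysosomal genes leaned to a higher shift. Of 37 tested, 15 were higher and 1 lower with all 6 sham libraries, and Gusb alone was called with libraries 5 and 6. The shares of all genes that were higher were 5.56% with all 6 and 0.365% with libraries 5 and 6. The median of the list was 0.42 and 0.24, beside 0.09 and 0.02 for all genes. Gusb, the lysosomal beta-glucuronidase, was at 53.9 to 73.5 with a median of 63.5 RPKM in sham and 69.7 to 85.8 with a median of 80.0 RPKM in irradiated libraries at 2 h. Its 6 h level was 53 to 77.5 with a median of 59.8 RPKM in sham and 129 to 164 with a median of 141 RPKM in irradiated libraries. Irradiated libraries overlapped sham at 2 h and lay above all sham libraries at 6 h. The shift of Gusb was 0.89 ± 0.14 (adjusted p = 4.70e-05), and 0.75 ± 0.17 with libraries 5 and 6 (adjusted p = 0.0145; 0.532 without library 6). Ctsb, cathepsin B, was at 103 to 110.3 RPKM in sham 6 h libraries 1 to 4 and 145 to 169 RPKM in libraries 5 and 6, beside 203 to 218 RPKM in irradiated 6 h libraries. Its shift went from 0.68 ± 0.15 (adjusted p = 0.00354) to 0.32 ± 0.16 (adjusted p = 0.643). Ctsa, the protective protein of lysosomal hydrolases, likewise went from 1.05 ± 0.24 (adjusted p = 0.00399) to 0.39 ± 0.24 (adjusted p = 0.75). Ctss, cathepsin S, was the lower gene, with -0.93 ± 0.17 (adjusted p = 0.000392) and -0.49 ± 0.18 (adjusted p = 0.33).

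Cd63, Cd68, Ctsb, Ctsd and Gusb are called members of both the lysosome list and that of disease-associated microglia. Of 33 tested genes of the latter, 9 were higher and 0 lower with all 6 sham libraries, and Gusb alone passed with libraries 5 and 6. The median was 0.36 and 0.16. Each list of this paragraph stands beside 5.56% of all genes higher and 3.72% lower with all 6. With libraries 5 and 6 the share of all genes called was 0.740%. Apoe, an apolipoprotein, had a shift of 0.66 ± 0.38 (adjusted p = 0.293) and -0.13 ± 0.42 with libraries 5 and 6 (adjusted p = 0.979). Of 15 tested genes of lipid efflux and handling, 4 were higher and 1 lower with all 6, 0 passed with libraries 5 and 6, and the median was 0.48 and 0.54. Abcg1, a cholesterol exporter, was at 3.10 to 5.87 RPKM in sham and 1.01 to 2.63 RPKM in irradiated libraries at 2 h. Its 6 h levels were 3.16 to 6.94 and 5.73 to 10.9 RPKM, and its shift was 1.49 ± 0.27 (adjusted p = 0.000271) and 1.07 ± 0.31 with libraries 5 and 6 (adjusted p = 0.131). Of 17 tested genes of complement and phagocytosis, C1qb was higher with all 6, and 0 passed with libraries 5 and 6. For C1qb the sham set decided the value. Its sham 6 h level was 92.1 to 132 RPKM in libraries 1 to 4 and 478 to 484 RPKM in libraries 5 and 6, and irradiated 6 h libraries were at 446 to 503 RPKM. Its shift went from 1.32 ± 0.33 (adjusted p = 0.00965) to -0.06 ± 0.19 (adjusted p = 0.979).

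Stress and housekeeping lists stand beside the same background, 9.28% of all genes called with all 6 sham libraries, or 0.740% when libraries 5 and 6 stood alone. Of 22 tested genes of endoplasmic reticulum chaperones and the integrated stress response, 6 were lower (Hspa5, Hsp90b1, Pdia6, Dnajb9, Herpud1 and Sel1l) and 0 higher, Pdia6 alone was lower with libraries 5 and 6, and the median was -0.26 and -0.34. Hspa5, the chaperone BiP, had -0.87 ± 0.23 (adjusted p = 0.0113) and -0.38 ± 0.25 with libraries 5 and 6 (adjusted p = 0.791). Of 76 tested cytosolic ribosomal protein genes, 6 were higher and 1 lower with all 6 and 0 passed with libraries 5 and 6, with medians of 0.35 and 0.08. Of 60 oxidative phosphorylation genes, 6 were higher and 0 lower with all 6 and 0 passed with libraries 5 and 6, with medians of 0.24 and -0.07. Of 22 apoptosis regulators outside the p53 lists, Bid and Ripk3 were higher and Casp4, Birc2 and Birc3 lower with all 6, and Bid, Casp4 and Birc3 passed with libraries 5 and 6. Of 22 cytokine receptors and SOCS genes, Socs5, Il13ra1 and Tgfbr1 were lower with all 6 and Il13ra1 also with libraries 5 and 6.

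Immediate early genes, which tissue digestion is known to induce, had medians of 0.35 and 0.45 over 33 tested; Jund, Dusp5 and Myc were higher with all 6 sham libraries and 0 passed with libraries 5 and 6. Fos varied widely within groups, with 241 to 1574 RPKM in sham and 393 to 915 RPKM in irradiated libraries at 2 h, and had a shift of -0.74 ± 0.49 (adjusted p = 0.375). Atf3, a stress factor, had 0.73 ± 0.71 (adjusted p = 0.576). Of 30 tested histone genes, 12 of the S phase list, 3 of the mitosis list and 11 of cholesterol synthesis and uptake, 0 passed in either direction with either sham set. The medians of the histone genes were -0.26 and -0.70. Ercc5 was lower with all 6 sham libraries among 12 tested genes of DNA damage signalling and repair, Hsph1 was lower among 14 heat shock genes, and Ldha was higher among 17 genes of glycolysis and hypoxia; none of these passed with libraries 5 and 6. Of 19 antioxidant genes, Mt1, Mt2 and Gpx1 were higher and Cat lower with all 6, and 0 passed with libraries 5 and 6. Each list of this paragraph stands beside 9.28% of all genes called with all 6, or 0.740% with libraries 5 and 6.

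**Figure D5:**
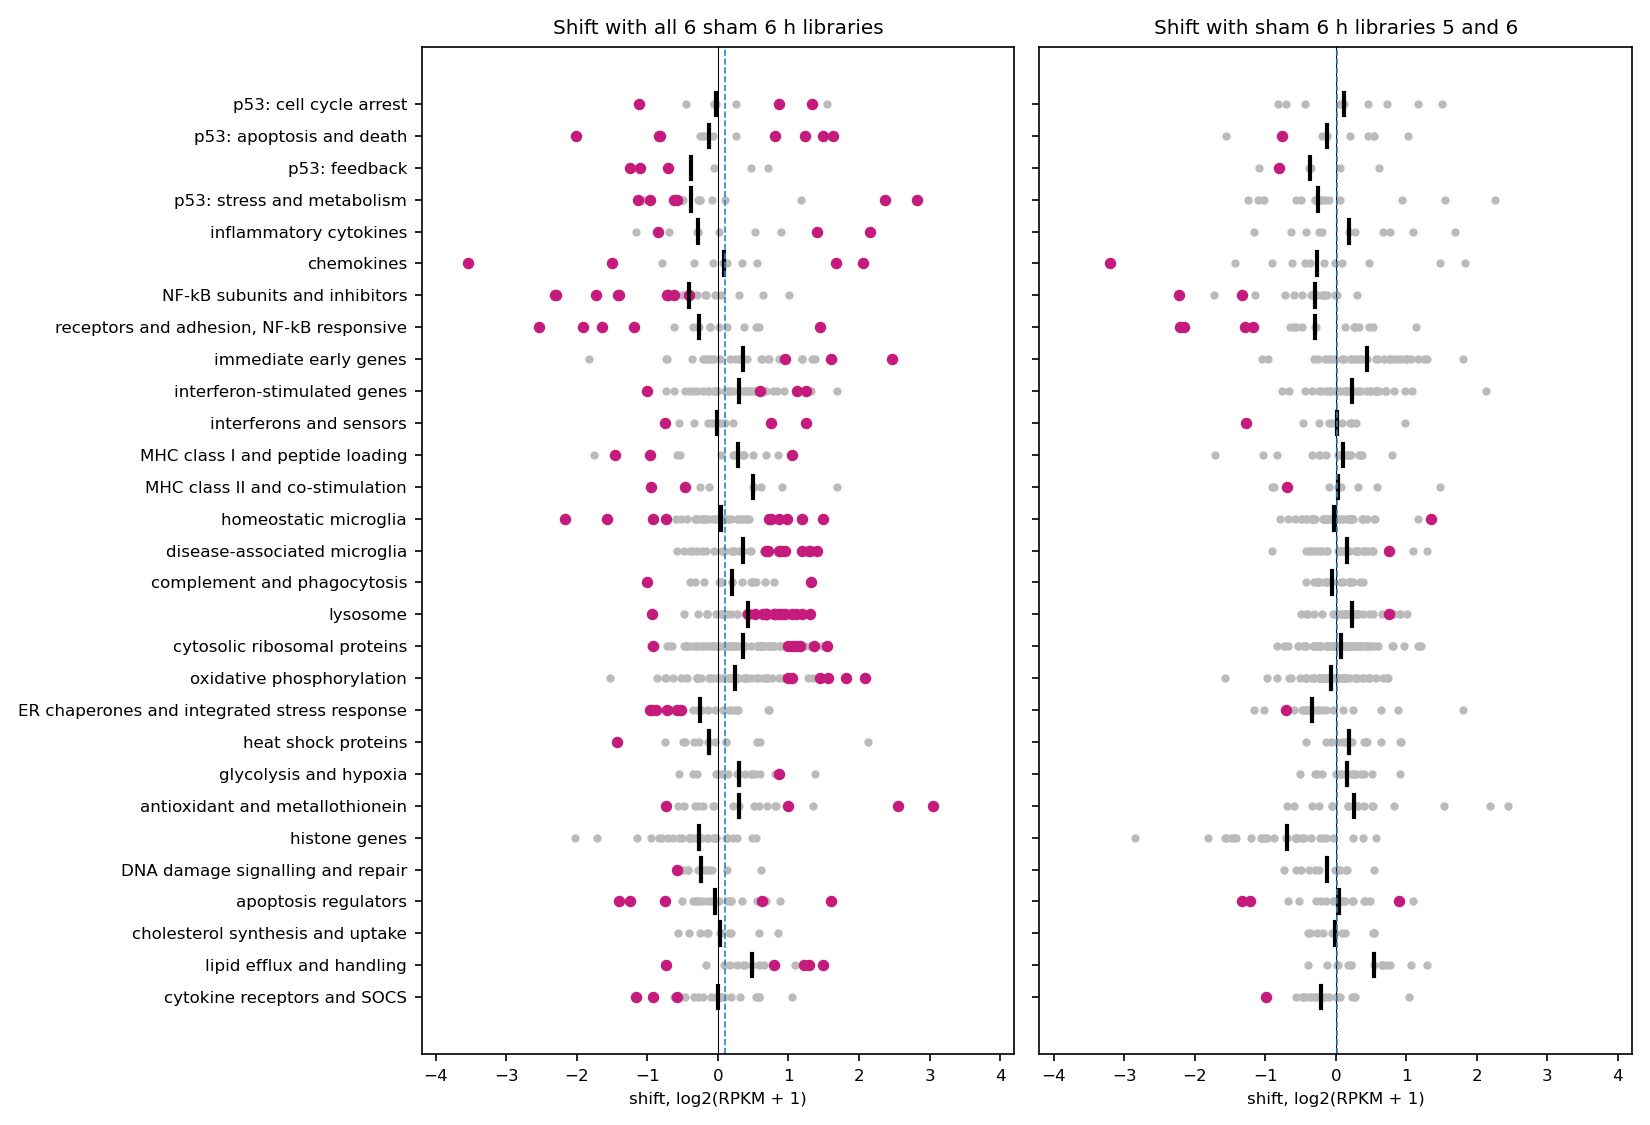
Shift of each tested member (points) of the gene lists, in log2 units of RPKM + 1, with all 6 sham 6 h libraries (left) and with libraries 5 and 6 (right). The lists of cell type markers, mitosis and S phase are left out. Coloured points passed, short bars are list medians, and the dashed line is the median of all genes tested, 0.09 on the left and 0.02 on the right. The NF-kB lists keep called genes on the lower side in both panels, whereas 15 lysosome genes are called higher on the left and Gusb alone on the right.

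The largest shifts that passed with all 6 sham libraries but not with libraries 5 and 6 are given next. On the higher side they were the metallothioneins Mt1 and Mt2, which bind zinc, Trappc2l, Ciart, Dcxr, Tnfrsf12a, Jund and Timm13. Mt1 was at 7.32 to 70.2 with a median of 16 RPKM in sham and 3.77 to 18.3 with a median of 8.35 RPKM in irradiated libraries at 2 h. At 6 h it was at 5.48 to 21.6 RPKM in sham libraries 1 to 4, 15.8 to 22.6 in libraries 5 and 6 and 35.6 to 51.6 with a median of 41.3 RPKM in irradiated libraries. Its shift was 3.05 ± 0.53 with all 6 (adjusted p = 0.000145) and 2.44 ± 0.63 with libraries 5 and 6 (adjusted p = 0.0519). Jund, an AP-1 subunit, and Timm13, an import chaperone of mitochondria, moved further with the sham set. The shift of Jund went from 2.46 ± 0.72 to 0.77 ± 0.77, with sham 6 h levels of 8.19 to 11.9 RPKM in libraries 1 to 4 and 54.4 to 75.6 RPKM in libraries 5 and 6. That of Timm13 went from 2.45 ± 0.65 to 0.79 ± 0.67, with 1.80 to 4.98 and 19.8 to 33.3 RPKM.

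Dcxr, an L-xylulose reductase listed as a p53 target, was at 5.37 to 11.8 RPKM at 2 h and 73.4 to 96.4 RPKM at 6 h in irradiated libraries. It was at 1.45 to 4.02 RPKM in sham 6 h libraries 1 to 4 and 7.96 to 13.8 RPKM in libraries 5 and 6, with shifts of 2.82 ± 0.51 and 1.55 ± 0.54 (adjusted p = 0.000286 and 0.286). Ciart, a repressor of the circadian clock, had 2.83 ± 0.56 and 2.31 ± 0.68, Trappc2l 2.84 ± 0.48 and 1.28 ± 0.42, Tnfrsf12a, the receptor of TWEAK, 2.67 ± 0.66 and 1.27 ± 0.72, and Mt2 2.55 ± 0.66 and 2.19 ± 0.82. On the lower side were Eif3k, a subunit of translation initiation factor eIF3 (-2.93 ± 0.87 and -0.84 ± 0.92), Nfkb2 and Lpar6, a lysophosphatidic acid receptor (-2.16 ± 0.57 and -0.68 ± 0.58). Also lower were the ribosomal RNA copy Rn18s-rs5 (-2.08 ± 0.56 and -1.48 ± 0.68), Pmaip1, Capns2 (-1.94 ± 0.63 and -1.49 ± 0.77), Zfp105 (-1.84 ± 0.61 and -1.38 ± 0.75) and Tspyl1 (-1.74 ± 0.56 and -1.05 ± 0.66). Sham 6 h levels of Eif3k were 60.8 to 224 RPKM in libraries 1 to 4 and 11.9 to 20.1 RPKM in libraries 5 and 6, and those of Lpar6 were 284 to 472 and 85 to 87.7 RPKM. Rn18s-rs5 is a copy of ribosomal RNA and its level also follows how much of that RNA entered a library, which was not tested.

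The shift can also be read as the change in irradiated animals from 2 h to 6 h minus the change in sham animals. Between the irradiated groups, 1947 genes were higher at 6 h (19.2%) and 1005 lower (9.92%). The GC slope was 0.188 to 0.256 in the irradiated 6 h libraries and -0.288 to -0.114 in the irradiated 2 h libraries. Time and kind of library therefore cannot be told apart in these counts. The same holds for the changes of irradiated animals given above for Nfkbie and Maf. Between the sham groups, limma called 0 genes with all 6 sham 6 h libraries, 731 had an unadjusted p under 0.05, and with libraries 5 and 6 as the 6 h sham 364 were higher (3.59%) and 148 lower (1.46%), 512 in all (5.05%). The sham part was 0.05 ± 0.43 for Cxcl10, 0.13 ± 0.17 for Vcam1, 0.07 ± 0.18 for Nfkbie and 0.39 ± 0.16 for Donson with all 6, and -0.30 ± 0.61, -0.20 ± 0.24, -0.02 ± 0.25 and 0.03 ± 0.22 with libraries 5 and 6. For Matn1, Sulf2 and Maf it was 0.02 ± 0.15, 0.07 ± 0.10 and -0.10 ± 0.14 with all 6, and 0.03 ± 0.21, -0.06 ± 0.14 and 0.04 ± 0.19 with libraries 5 and 6. For Slc35c2, Pmp22, Tmem86a and Tmem173 it was -0.36 ± 0.22, 0.27 ± 0.17, 0.06 ± 0.15 and 0.19 ± 0.16 with all 6 and 0.58 ± 0.25, 0.83 ± 0.21, 0.55 ± 0.19 and 0.73 ± 0.19 with libraries 5 and 6.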

How the data were processed

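RNA of sorted microglia was measured by bulk sequencing in 48 libraries, of which the 24 of 2 h and 6 h are described. The submitters' processing notes name featureCounts 1.5.1, STAR 2.6.1d, bcl2fastq 2.20.0 and FastQC 0.11.8, with the builds GRCm38 and mm10. Neither annotation nor strand setting of the counting is given in the sources used here. The authors deposited RPKM values for 48526 genes. Multiplied by the gene's span, each deposited RPKM value was a whole number of reads over the total of 1 of the 48 libraries, within 0.001 reads for 100% of 719081 values above 0, but the total was the library's own for 2.05% of them. The ratio of a deposited to a recomputed value ran from 0.436 to 3.11 (5th to 95th percentile). Reads were therefore recovered and RPKM recomputed with each library's own total; 95 genes of at most 16 reads had more than 1 possible match.

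Genes with RPKM of at least 1 in at least 6 of 48 libraries entered limma 3.58.1 in R 4.3.3, with trend and robust variance, on log2(RPKM + 1), 8 group means and 40 residual degrees of freedom. P values were adjusted by Benjamini-Hochberg with a threshold of 0.05. The fit with sham 6 h libraries 5 and 6 gave libraries 1 to 4 a mean of their own. Other choices of scaling, filter, pseudocount, tool, block and libraries were tried, and their effect is given at the end. Each library is 1 animal. Genes named were the 15 largest shifts each way called with both sham sets, the 8 largest each way called with all 6 only (both reaching a group mean of 5 RPKM and without predicted, small RNA and mitochondrial genes), up to 4 members of each list with those called with libraries 5 and 6, and a fixed panel; the rest of the 72 genes called both ways were added after their values were seen. The genes described and the lists were chosen with earlier results of these data known. Motifs were searched in RefSeq promoters of GRCm38.p6, which held 29 of the 35 lower and 29 of the 37 higher genes. A result of the complement list is not reported here.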

Additional observations from a re-analysis of the deposited data

Results flagged for a closer look

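In 10 of 128 sets of values (a gene or the read total in 1 group), 1 library lay far from the others of its group by Dixon's criterion, where chance gives about 5 of 100. Sham 2 h library 5 had 2277026 reads. At 2 h, irradiated library 1 had 4.09 RPKM of Matn1, irradiated library 5 had 31.2 RPKM of Slamf9, irradiated library 2, the shallowest of the 24, had 7.69 RPKM of Pmp22, and irradiated library 3 had 16.6 RPKM of Vcam1. At 6 h, sham library 5 had 1.46 RPKM of Cxcl10, sham library 1 had 2.11 RPKM of Vcam1 and sham library 3 had 3.42 RPKM of Birc3. Irradiated library 5 had 7.21 RPKM of Glipr2 and irradiated library 4 had 27.0 RPKM of Slc35c2 at 6 h.

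The effect of irradiation differed between 2 h and 6 h, by limma's test of the shift with both sham sets, for 30 named genes. Shifts with all 6 sham libraries were higher by 2.44 for Matn1, 2.11 for Glipr2, 2.57 for Slamf9, 1.45 for Sulf2, 1.49 for Maf, 1.32 for Glipr1, 2.19 for Slc35c2, 1.16 for Ctns, 1.09 for Flcn, 1.65 for Pmp22, 1.56 for Tmem86a, 1.02 for Mmp2, 0.97 for Impact, 1.13 for Lpcat1 and 1.25 for Amz1. The lower shifts were -3.55 for Cxcl10, -2.32 for Nfkbie, -2.53 for Vcam1, -1.92 for Tlr2, -2.06 for Donson, -1.43 for Rnf19b, -1.46 for Rassf4, -1.53 for Cpd, -1.41 for Birc3, -1.65 for Tlr1, -1.19 for Icam1, -1.13 for Icosl, -1.07 for Orai2, -1.03 for Mif4gd and -1.15 for Il13ra1.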

How the results depend on the processing

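Against 563 higher and 377 lower shifts with all 6 sham 6 h libraries, there were 354 and 212 in a fit of the 24 libraries only, 371 higher after quantile normalization, 308 higher after a GC content and length trend was removed, 275 and 246 when the replicate block was added to that, and 175 lower with a minimum of 5 RPKM. Only 2 and 1 passed with the values as deposited. There were 37 and 38 with sham libraries 5 and 6 only, and 1230 and 791 with libraries 1 to 4 only. Leaving out 1 library gave 407 to 828 higher and 239 to 509 lower shifts, with 239 without sham 6 h library 1. With sham libraries 5 and 6, against 37 and 38, there were 73 and 238 without a filter, 24 and 22 with a minimum of 5 RPKM, 21 higher in the 24 libraries only, 0 and 2 as deposited, 11 and 18 with the replicate block, 12 and 18 with the block and the GC trend removed, and 14 to 15 higher and 19 to 23 lower without library 5 or library 6. The cause of these changes was not tested. The shift of C1qb turned to -0.058 with libraries 5 and 6 only, and as deposited, with libraries 5 and 6, Pmp22 turned to -0.30 and Lpxn to -0.22. Of the shifts of single genes, 6558 results kept direction and side of the threshold with all 6 libraries, 640 no longer passed and 20 newly passed; with libraries 5 and 6, 694 kept them and 346 no longer passed. A shift that passed in neither fit counts here as kept whatever its sign. Whether the replicate numbers pair the animals was not settled. Same-numbered sham and irradiated libraries correlated at 0.016 to 0.137 at 2 h and -0.012 to 0.036 at 6 h. At 2 h sham libraries 1, 3, 5 and 6 correlated most with the irradiated library of the same number. At 6 h sham library 2 did. With the block and all 6 sham libraries, 503 higher and 310 lower shifts passed. Depth of 395761 to 3233667 reads per library limits genes near 0, such as Matn1 in sham animals.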
